A study of Malus domestica with 4 samples.

Results

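Transcripts of 4 enzymes that serve as markers of low oxygen in the RT-qPCR work of this study were followed by RNA-seq in the cortex of Granny Smith apples. They are pyruvate decarboxylase (PDC, MDP0000800945), alcohol dehydrogenase (ADH, MDP0000594290), alanine aminotransferase (AlaAT, MDP0000319263) and sucrose synthase (SuSy, MDP0000250070). They were taken by gene identifier from the list of RT-qPCR targets, not by their RNA-seq values, and are 4 of the 63514 genes in each deposited table.

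The conditions were 0.8ox and 0.4ox, fruit held in 0.8 or 0.4 kPa oxygen for 24 days in atmosphere (DIA), T0, normoxic fruit taken before the low oxygen period, and a sample called shifted here, whose 0.4 kPa chamber had been raised to 0.8 kPa. All fruit belonged to 1 cultivar, was picked at commercial ripening, was kept at 1 °C, and had 3 days of acclimation before T0. Slices of cortex from the equator of the fruit gave the RNA, with 3 libraries per condition. The day of the shifted sample is not given in the labels, but the chamber was raised after the sampling at 24 DIA, so this sample had both a longer storage and another oxygen history than 0.8ox, and these cannot be told apart. The low oxygen atmospheres also held nitrogen and carbon dioxide, and each oxygen level had its own chamber. No library of fruit kept in air for 24 DIA was analysed here, so storage time and the low oxygen atmosphere cannot be told apart in any comparison with T0. The study's RT-qPCR of these genes did include fruit stored in normoxia. In that fruit it reports a rising trend of PDC and a slight rise of AlaAT later in storage, and no significant change of SuSy. For 0.8 kPa oxygen it reports AlaAT at basal levels. In bulk tissue, fewer cells of a type and less RNA per cell cannot be told apart either.

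When oxygen is too low for mitochondrial respiration, plant cells keep glycolysis running by regenerating NAD+ through fermentation. PDC removes carbon dioxide from pyruvate to give acetaldehyde, and ADH reduces acetaldehyde to ethanol while oxidising NADH. AlaAT moves an amino group from glutamate to pyruvate and so diverts it to alanine, a storable end product. SuSy splits sucrose with UDP and feeds sugar into glycolysis at a lower cost in ATP than invertase does.

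The primers designed for RT-qPCR are shown because the study's primer list pairs them with these enzyme names and identifiers. They were not aligned to any sequence here. There were 2 per gene, written 5′ to 3′ in lower case, of 20 to 22 bases, with 9 to 12 bases of G or C each.
PDC forward: caaggcagtaaagccggtta
PDC reverse: aaatcggtccagcaaacaag
ADH forward: ggaagcactgaagccatgat
ADH reverse: ctccacgacagagggaatgt
AlaAT forward: tgctgtccgaggtgaaatcgtc
AlaAT reverse: agcccggattcgcctttaactc
SuSy forward: tccgtgttcactgctacgag
SuSy reverse: gcctcaagaaggtccaacag
Genome positions, proteins and promoters of these identifiers are not given here.

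Each value was 1 estimated count per condition, merged by the authors from the 3 libraries, with a modelled variance whose root is given as the SD. The counts summed to 6471124 in 0.8ox, 5445598 in 0.4ox and 9553180 in T0, and 26092, 25342 and 29261 genes reached 10 counts. A separate table of the shifted sample and 0.8ox summed to 4865029 and 5363827. Its low counts were whole reads only, whereas the other tables also hold fractions of a read, although multiply mapped reads are said to have been removed. How the fractions came about was not tested. Counts were scaled between conditions by the median of ratios, which removed a log2 shift of -0.88 from 0.4ox/T0, -0.62 from 0.8ox/T0 and 0.26 from 0.8ox/0.4ox. Values called scaled counts include this step. Because the libraries were merged before deposit, the errors rest on the modelled variance and the tests on a normal approximation to it.

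PDC stood far above T0 at both oxygen levels. Its estimated count was 36866.5 ± 6350 in 0.8ox, 47714.6 ± 13834 in 0.4ox and 855.1 ± 66.5 in T0. It took 0.570% of all counts in 0.8ox and 0.876% in 0.4ox, but 0.00895% in T0. The modelled SD was 17.2% of the count in 0.8ox, 29.0% in 0.4ox and 7.78% in T0, so the highest level was also the least precise. After scaling, 0.4ox was 102.6-fold above T0 (log2 ratio 6.68, SE 0.43, 95% interval 5.83 to 7.53, adjusted p = 3.24e-51). The 0.8ox fruit was 66.3-fold above T0 (log2 ratio 6.05, SE 0.27, 95% interval 5.52 to 6.58, adjusted p = 9.77e-106). These ratios were the 78th highest of 29939 and the 73rd highest of 29909 genes tested.

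ADH, the step after PDC, had 1190.76 ± 96.7 counts in 0.8ox, 1362.24 ± 152 in 0.4ox and 1090.21 ± 83.7 in T0. The counts as deposited thus lay within a narrow range, but they are not corrected for the total counts, which were highest in T0. ADH took 0.0184% of all counts in 0.8ox, 0.0250% in 0.4ox and 0.0114% in T0. The difference from T0 thus rests mostly on correcting for the totals. Scaled counts were 1294 ± 105 in 0.8ox, 1772 ± 197 in 0.4ox and 771 ± 59.2 in T0. ADH was 2.30-fold above T0 in 0.4ox (log2 ratio 1.20, SE 0.20, adjusted p = 1.29e-08) and 1.68-fold in 0.8ox (log2 ratio 0.75, SE 0.16, adjusted p = 3.22e-05). In the separate table of whole reads, the same 0.8ox condition had only 2.64 counts for ADH. How far these folds rest on reads of this gene alone was not tested.

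In the tables of 0.8ox, 0.4ox and T0, AlaAT had the fewest counts of the 4 genes. Its estimated count was 165.3 ± 16.6 in 0.8ox, 194.9 ± 22.7 in 0.4ox and 156.2 ± 16.1 in T0. Scaled counts were 180 ± 18.0 in 0.8ox, 254 ± 29.6 in 0.4ox and 111 ± 11.4 in T0. AlaAT was 2.29-fold above T0 in 0.4ox (log2 ratio 1.20, SE 0.22, adjusted p = 1.15e-06). In 0.8ox the ratio was 1.63-fold (log2 ratio 0.70, SE 0.21, adjusted p = 0.00361) and missed the threshold of 0.001, which it passed with the variance divided by the 3 libraries (adjusted p = 2.37e-08).

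SuSy, at the entry of sucrose into metabolism, had 4902.85 ± 455 counts in 0.8ox, 3966.88 ± 505 in 0.4ox and 709.3 ± 55.8 in T0. Scaled counts were 5329 ± 494 in 0.8ox, 5159 ± 657 in 0.4ox and 502 ± 39.4 in T0, so both low oxygen conditions were close together and apart from T0. SuSy was 10.3-fold above T0 in 0.4ox (log2 ratio 3.36, SE 0.22, adjusted p = 3.99e-52) and 10.6-fold in 0.8ox (log2 ratio 3.41, SE 0.18, adjusted p = 4.33e-81). The log2 intervals of PDC and SuSy did not overlap in either comparison, 5.83 to 7.53 against 2.94 to 3.79 in 0.4ox/T0 and 5.52 to 6.58 against 3.07 to 3.75 in 0.8ox/T0.

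**Figure D1:**
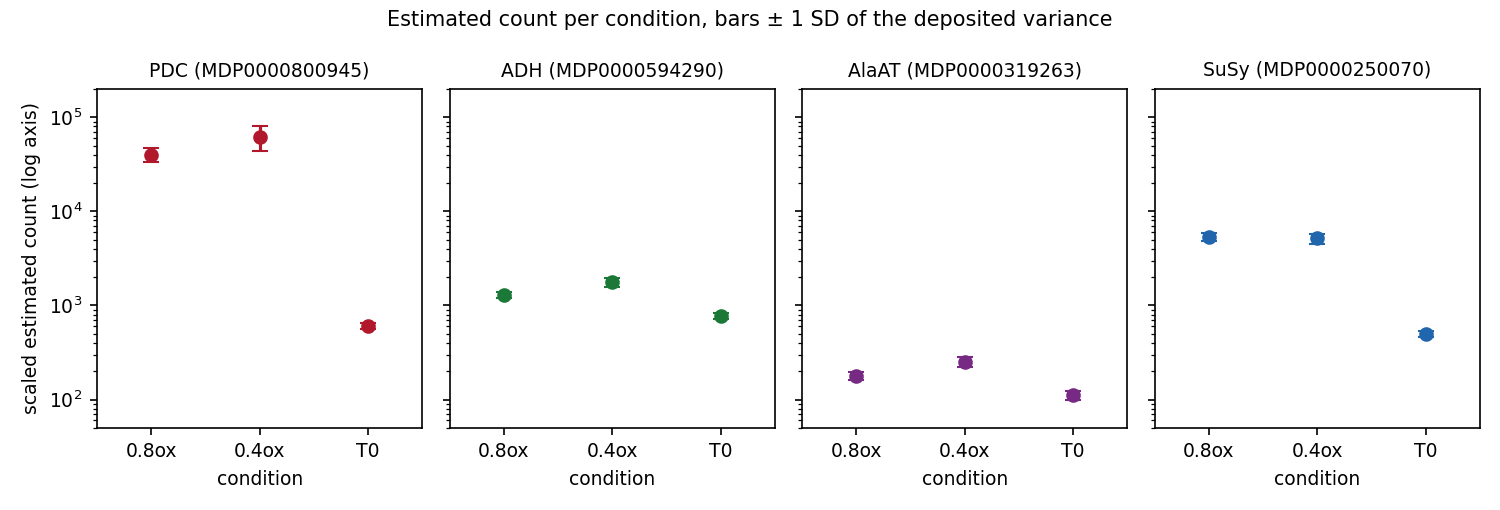
Scaled estimated counts (vertical log axis) of PDC, ADH, AlaAT and SuSy in 0.8ox, 0.4ox and T0, 1 point per condition with bars of ± 1 SD from the deposited variance. PDC and SuSy stood far above T0 at both oxygen levels (PDC 40074 in 0.8ox and 62058 in 0.4ox, against 605 in T0), while ADH and AlaAT differed less from T0. Heights are not corrected for gene length and should be compared within a panel.

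Across the set, 4 of 4 genes were higher in 0.4ox than in T0 past the threshold, where 8.71% of the 29939 genes tested were higher. In 0.8ox, 3 of 4 were higher than in T0, where 7.66% of the 29909 genes tested were higher. Both counts include ADH, and that of 0.4ox also includes AlaAT. The whole-read counts of ADH and AlaAT were low, as given below. The median log2 ratio of the 4 genes was 2.28 for 0.4ox/T0 and 2.08 for 0.8ox/T0, against -0.0134 and -0.0041 over all genes tested. Both comparisons use the same T0 value, so they are not independent of each other.

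The values of ADH and AlaAT against T0 changed direction only with the RT-qPCR reference gene set equal. Those of PDC and SuSy kept theirs under the 6 scalings plotted. The RT-qPCR list includes a reference gene, MDP0000375455, to which transcript levels are related. It had 788.9 ± 64.5 counts in 0.8ox, 678.9 ± 72.6 in 0.4ox and 511.3 ± 41.7 in T0, and its own log2 ratio after scaling was 1.29 (SE 0.19) for 0.4ox/T0 and 1.25 (SE 0.17) for 0.8ox/T0, both past the threshold. With this gene set equal in all conditions, the log2 ratio of ADH was -0.09 for 0.4ox/T0 and -0.50 for 0.8ox/T0, and that of AlaAT was -0.09 and -0.54. With the counts as deposited, ADH was at 0.32 and 0.13 and AlaAT at 0.32 and 0.08, none past the threshold. The other scalings were TMM of edgeR, equal totals and genes with mostly whole reads. With these, ADH was at 1.13, 1.13 and 1.18 in 0.4ox/T0 and AlaAT also at 1.13, 1.13 and 1.18, all past the threshold. In 0.8ox/T0 ADH was at 0.71, 0.69 and 0.72, past the threshold. AlaAT was at 0.66, 0.64 and 0.67 there and did not pass it. PDC and SuSy stayed past the threshold and above T0 under each of the 6 scalings plotted.

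**Figure D2:**
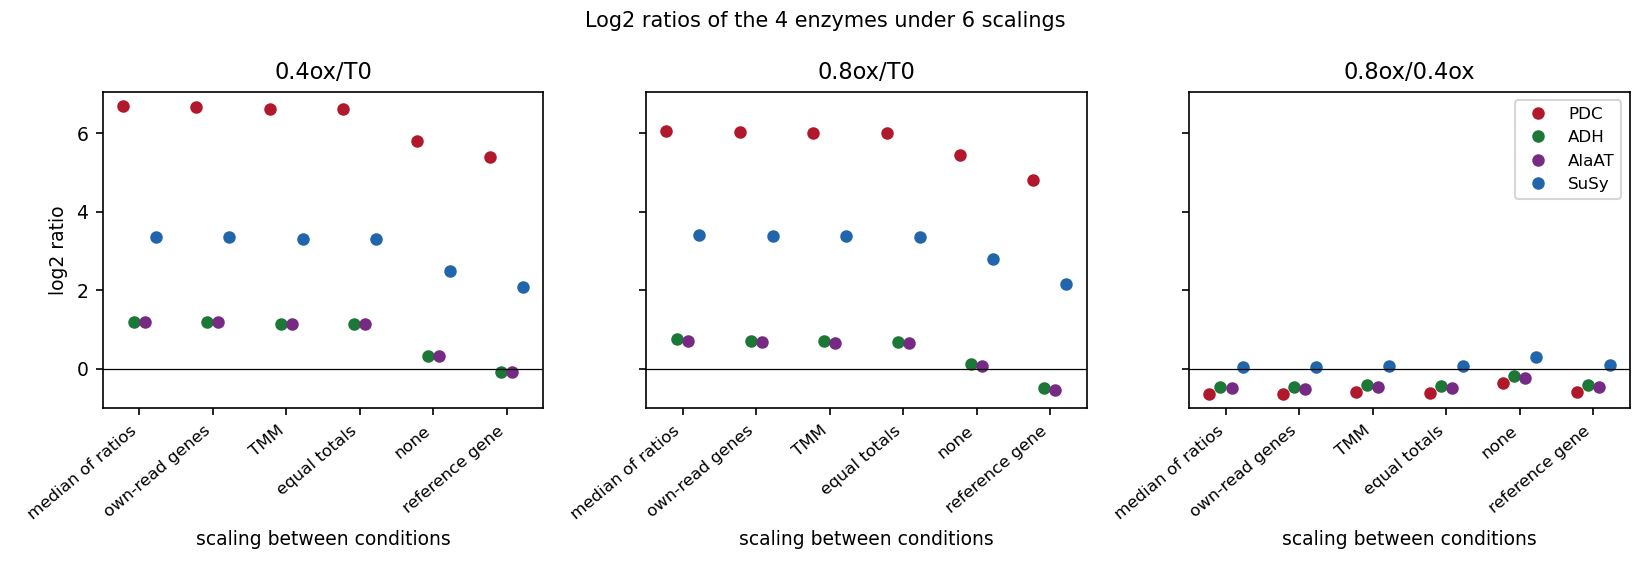
Log2 ratios (vertical axis) of the 4 enzymes in 0.4ox/T0, 0.8ox/T0 and 0.8ox/0.4ox under 6 ways of scaling the conditions (horizontal axis), 1 point per gene and scaling. PDC and SuSy lay above 0 in both comparisons with T0 under every scaling shown, whereas ADH and AlaAT lay below 0 when the reference gene was set equal (-0.09 and -0.09 in 0.4ox/T0).

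The comparison of 0.8ox with 0.4ox at 24 DIA was made at equal storage time. Each oxygen level had its own chamber, so oxygen level and chamber cannot be told apart in it. None of the 4 genes passed the threshold (0 of 4, where 3.97% of the 26934 genes tested were called in either direction). With the variance divided by the 3 libraries 2 of 4 passed, ADH (adjusted p = 0.000544) and AlaAT (adjusted p = 0.000689). At this setting 4355 of the 26934 genes tested were called in either direction, against 1069 with the undivided variance. At an unadjusted p under 0.05 there were the same 2 of 4, for which no share over all genes was computed. The exact test of edgeR, whose dispersion came from the same deposited variances, called 0 of 4, against 1138 of all genes tested. PDC was at a log2 ratio of -0.63 (SE 0.49, 95% interval -1.58 to 0.32, adjusted p = 0.556), an interval wide enough for a level of 0.333 of that in 0.4ox. ADH was at -0.45 (SE 0.20, 95% interval -0.84 to -0.06, adjusted p = 0.154) and AlaAT at -0.50 (SE 0.22, 95% interval -0.93 to -0.06, adjusted p = 0.165). The point estimates of these 3 genes were below 0. Those of ADH and AlaAT did not hold up against the correction, and the interval of PDC included 0 before it. SuSy was at 0.05 (SE 0.23, 95% interval -0.40 to 0.49, adjusted p = 0.959). Its interval leaves room for a level between 0.758 and 1.41 times that in 0.4ox.

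**Figure D3:**
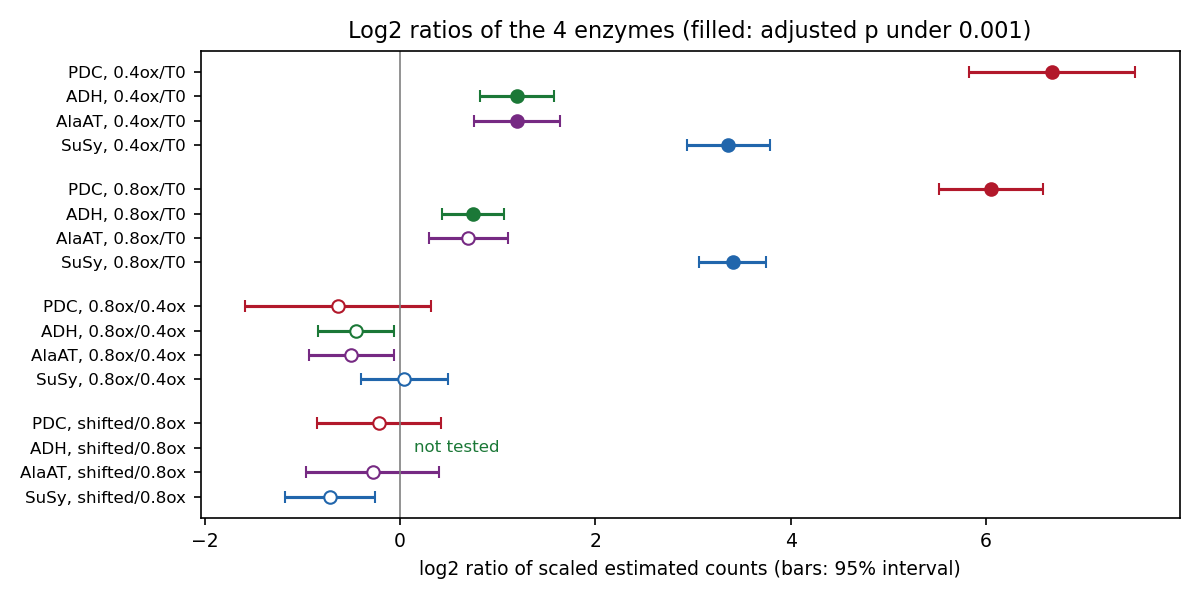
Log2 ratios of scaled estimated counts (horizontal axis) of the 4 enzymes in 4 comparisons, with bars for the 95% interval; filled points passed the adjusted p of 0.001. All 4 genes passed in 0.4ox/T0 and 3 of 4 in 0.8ox/T0, where 8.71% and 7.66% of all genes tested were higher. None passed between oxygen levels or after the shift, where 3.97% and 1.76% of all genes tested were called in either direction. ADH could not be tested after the shift. The whole-read counts of ADH and AlaAT were low.

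In the table of the shifted sample, PDC had 27764.5 ± 4302 counts in shifted and 31992.9 ± 5155 in 0.8ox. The log2 ratio was -0.21 (SE 0.32, 95% interval -0.84 to 0.42, adjusted p = 0.865). AlaAT had 34.2 ± 5.99 counts in shifted and 41.2 ± 6.77 in 0.8ox, a log2 ratio of -0.28 (SE 0.35, 95% interval -0.96 to 0.40, adjusted p = 0.815). SuSy had 3534.32 ± 404 counts in shifted and 5774.3 ± 674 in 0.8ox, and its log2 ratio of -0.72 (SE 0.24, 95% interval -1.18 to -0.25, adjusted p = 0.0482) was the most distant from 0. None of the 3 genes tested passed the threshold (0 of 3, where 1.76% of the 20669 genes tested were called in either direction). At an unadjusted p under 0.05 there was 1 of 3, SuSy, and no share over all genes was computed for this. SuSy also passed with the variance divided by the 3 libraries (adjusted p = 2.96e-06), where 2174 of the 20669 genes tested were called. The exact test of edgeR called 0 of 3, against 395 of all genes tested.

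ADH could not be tested there, because almost no whole reads were assigned to it. Its count was 1.48 in shifted and 2.64 in 0.8ox, which correspond to 6 reads in each (4, 1 and 1 by library in shifted, and 1, 3 and 2 in 0.8ox). Both counts are under the floor of 3 counts, so no fold is given. For the same 0.8ox condition, the whole-read count divided by the estimated count in the other tables was 0.0022 for ADH. It was 0.249 for AlaAT, 0.868 for PDC and 1.18 for SuSy. Over the 15171 genes with 50 or more counts in 0.8ox, this ratio had a median of 1.01, quartiles of 0.307 and 1.15 and a highest value of 1.19, and 16.3% of genes were under 0.1. The ADH count in the whole-read table was thus 0.222% of that in the other tables, and that of AlaAT 24.95%. The part of this difference in the values of ADH and AlaAT against T0 was not tested. The 2 genes at a ratio of 0.5 or more, PDC and SuSy, were higher in both comparisons with T0. Among all genes at such a ratio and with 50 or more counts in 0.8ox, 13.8% of 10521 were higher in 0.4ox and 14.0% of 10527 in 0.8ox.

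**Figure D4:**
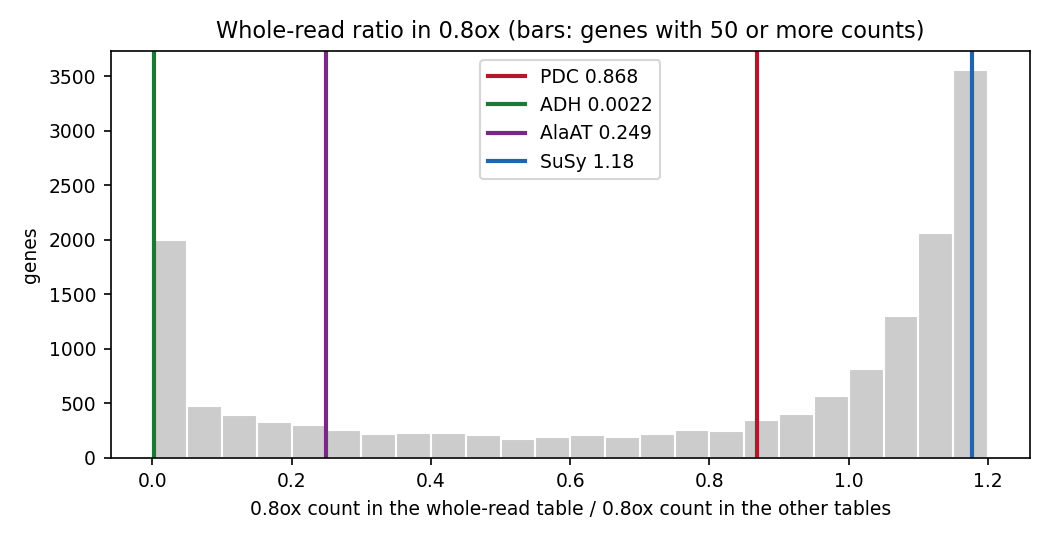
Number of genes (vertical axis) by the ratio of the 0.8ox count in the whole-read table to the 0.8ox count in the other tables (horizontal axis), for the 15171 genes with 50 or more counts, with the 4 enzymes as vertical lines. SuSy (1.18) stood near the upper end, PDC (0.868) below the main peak, AlaAT (0.249) low and ADH (0.0022) at the bottom.

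The other 13 genes of the RT-qPCR list, without the reference gene, give the surroundings of the 4 enzymes. Against T0, 0.4ox had 9 of them higher and 1 lower past the threshold, where 8.71% of all genes tested were higher and 8.23% lower. In 0.8ox, 10 were higher and 1 lower, where 7.66% of all genes were higher and 8.89% lower. These counts against T0 were made with the median of ratios only. Their median log2 ratio was 2.59 for 0.4ox/T0 and 2.41 for 0.8ox/T0, against -0.0134 and -0.0041 over all genes tested. Between oxygen levels 3 of the 12 tested were lower in 0.8ox, where 2.47% of all genes were, and their median was -0.10, against -0.0047 over all genes. After the shift 0 of the 10 tested passed, where 1.76% of all genes did in either direction. At an unadjusted p under 0.05 there were 5 of 10, for which no share over all genes was computed. The exact test of edgeR called 0 of 10, against 395 of the 20669 genes tested. The study chose this list for its bearing on low oxygen, so its direction is not independent evidence.

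Among these, all 5 genes of carbohydrate and lactate metabolism were higher than in T0 at both oxygen levels. Of all genes tested, 8.71% were higher in 0.4ox and 7.66% in 0.8ox. Lactate dehydrogenase, which reduces pyruvate to lactate and so competes with PDC and AlaAT for it, was listed with 2 genes. MDP0000568449 had 322.4 counts in 0.8ox, 306.1 in 0.4ox and 93.2 in T0, with log2 ratios of 2.41 for 0.8ox/T0 and 2.59 for 0.4ox/T0. MDP0000143956 had log2 ratios of 2.37 for 0.8ox/T0 and 2.38 for 0.4ox/T0. The 2 beta-amylase genes, which release maltose from starch, were at 2.85 (MDP0000764433) and 2.87 (MDP0000142134) in 0.4ox/T0, although MDP0000764433 had 0 whole reads.

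The gene MDP0000131308 is a phosphofructokinase in the primer list and an alpha-amylase-like gene elsewhere in the study, so which enzyme its values stand for is not settled here. It was the gene of this group that passed the threshold between oxygen levels. It had 257.7 counts in 0.8ox, 615.7 in 0.4ox and 34.2 in T0. Its log2 ratio for 0.8ox/0.4ox was -1.52 (SE 0.20, adjusted p = 1.96e-11), against -0.63 or higher for the 4 enzymes.

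Of the 6 group VII ethylene response factors, a family whose members are stabilised in low oxygen in Arabidopsis, 3 stood above T0 and 1 below it in 0.4ox. There 8.71% of all genes tested were higher and 8.23% lower. In 0.8ox, 4 stood above T0 and 1 below it, where 7.66% of all genes were higher and 8.89% lower. Between oxygen levels, 2 of 6 were lower in 0.8ox than in 0.4ox, where 2.47% of all genes were. Of those above T0 in 0.8ox, MDP0000413387 (log2 ratio 0.91) and MDP0000128979 (1.00) lay under the reference gene's own 1.25. Their folds in the counts as deposited, before any scaling, were 1.22 and 1.30, so these calls depend on the scaling. In 0.4ox/T0, MDP0000413387 was at 1.64 (SE 0.20), against the reference gene's own 1.29, with a fold of 1.69 in the counts as deposited. Whether that call holds under other scalings was not tested. MDP0000848905 (3.01) and MDP0000288465 (3.38) lay above the reference gene. MDP0000288465 had 542.2 counts in 0.8ox, 1029.25 in 0.4ox and 80.1 in T0, with a log2 ratio of -1.18 for 0.8ox/0.4ox (adjusted p = 1.53e-07). The other, MDP0000848905, was at -0.89 (adjusted p = 0.000202) but had 0 whole reads. Of the 2 genes of ethylene synthesis, the ACC oxidase MDP0000195885 was higher than in T0, at a log2 ratio of 5.97 in 0.8ox/T0 and 4.68 in 0.4ox/T0. It was at 1.30 in 0.8ox/0.4ox (adjusted p = 0.00829) and -1.33 in shifted/0.8ox (adjusted p = 0.00294), neither past the threshold. By RT-qPCR, the paper reports that this transcript rose during storage in normoxic fruit and that low oxygen delayed the rise. The ACC synthase MDP0000413933 did not pass against T0. It had only 8.28 counts in 0.8ox, 5.93 in 0.4ox and 10.6 in T0, so no lack of change is read from it.

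Each enzyme was also set beside the genes with the most similar profile, as the distance in log2 units over 0.4ox/T0, 0.8ox/T0 and shifted/0.8ox among 12110 genes. For PDC the nearest were MDP0000508081 (0.41), MDP0000258775 (0.42) and MDP0000160547 (0.43), and 4 genes lay within 0.5. For SuSy they were MDP0000174437 (0.39), MDP0000129192 (0.41) and MDP0000265983 (0.50), and 2 genes lay within 0.5. AlaAT had MDP0000182792 (0.04), MDP0000168683 (0.06) and MDP0000238675 (0.08) nearest, and 447 genes within 0.5, so its profile was a common one. None of these neighbours is annotated in the sources used here, and ADH was left out because it could not be tested after the shift.

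**Figure D5:**
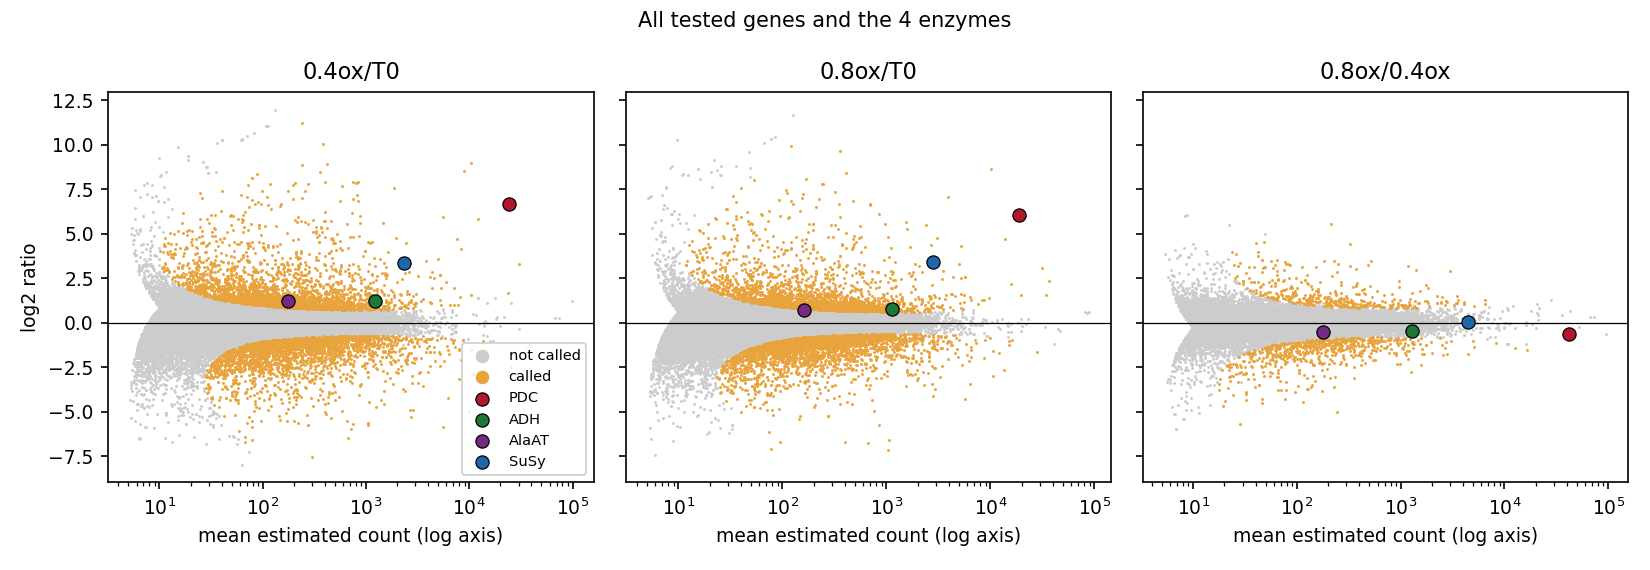
Log2 ratio (vertical axis) against mean estimated count (horizontal log axis) of all genes tested in 0.4ox/T0, 0.8ox/T0 and 0.8ox/0.4ox, with called genes in orange and the 4 enzymes as large points. PDC (log2 ratio 6.68 in 0.4ox/T0) and SuSy (3.36) stood above most genes of similar count, AlaAT and ADH (1.20 each) nearer to the main cloud, and all 4 enzymes lay among the genes not called in 0.8ox/0.4ox.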

How the data were processed

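RNA from apple cortex was sequenced as single 50-base reads (TruSeq RNA, HiSeq2000), with 3 libraries per condition. The authors cleaned the reads with ERNE, mapped them on the apple genome (version 1.0) with Bowtie2 under TopHat2, and ran Cuffdiff. Multiply mapped reads are said to have been removed. Versions are not given in the sources used here. The deposited tables hold 1 estimated count (expected count) per gene and condition, with its variance in squared counts, another measure of the authors. Counts of T0, 0.4ox and 0.8ox were identical among the 3 tables that compare these conditions and were not scaled between conditions. The table of the shifted sample gives other counts for 0.8ox.

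Size factors by the median of ratios were computed with numpy 2.4.6 and pandas 2.3.3. A gene was tested if 1 of the conditions compared had at least 10 counts and neither was at 0. The SE came from the undivided variances of both conditions. The ratio over its SE was tested two-sided against the normal distribution (scipy 1.17.1), with Benjamini-Hochberg adjustment over all genes tested and a threshold of 0.001. Intervals are at 95%. The exact test of edgeR 4.0.16 on the rounded estimated counts was an alternative. Its dispersion was taken from the same deposited variances, so it is not an independent estimate of the spread. The procedure was tested on simulated data.

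The 4 enzymes, the gene lists and the tests were chosen with earlier results of these data known. Named genes are the 4 enzymes, the other RT-qPCR targets, 6 genes annotated to the same or adjacent steps, and the 3 nearest profiles per enzyme among genes with at least 100 counts. No identifier of the 4 enzymes matched the RefSeq table used. Alternatives changed the scaling, variance, minimum count, pseudocount, threshold and test. The scaling on genes with mostly whole reads was chosen after seeing the data.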

Additional observations from a re-analysis of the deposited data

How the results depend on the processing

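Of the 4 genes, the number higher in 0.4ox than in T0 was 2 with the counts as deposited and 2 with the reference gene set equal, against 4. With these settings AlaAT was at 0.32 and -0.0897 and ADH at 0.32 and -0.0876 on the log2 scale. For 0.8ox/T0, AlaAT was at -0.54 and ADH at -0.50 with the reference gene set equal, and ADH at 0.13 with the counts as deposited. With the variance divided by the 3 libraries, AlaAT passed in 0.8ox/T0 (0.70), AlaAT (-0.50) and ADH (-0.45) passed in 0.8ox/0.4ox, making 2 of 4, and SuSy passed after the shift (-0.72), making 1. At an adjusted p under 0.05, AlaAT passed in 0.8ox/T0 (0.70) and SuSy after the shift (-0.72), making 1. The adjusted p of AlaAT in 0.8ox/T0 ran between 2.37e-08 and 0.758 over the alternatives. Over all genes, calls in 0.4ox/T0 numbered 5072 (2607 higher, 2465 lower), 11388 with the counts as deposited (801 higher, 10587 lower), 16929 with the reference gene set equal (538 higher, 16391 lower) and 12118 with the variance divided. In 0.8ox/T0 they numbered 4950, 8742 (790 higher, 7952 lower), 17970 (392 higher, 17578 lower) and 11883. In 0.8ox/0.4ox they numbered 1069 (404 higher, 665 lower), 1242 (844 higher, 398 lower) with the counts as deposited and 4355 with the variance divided. After the shift they numbered 363 (234 higher, 129 lower), 405 with equal totals (319 higher, 86 lower) and 2174 with the variance divided. At an adjusted p under 0.05 calls numbered 10162, 9850, 2503 and 1048 in these 4 comparisons. No paired analysis was possible because the labels carry no replicate numbers and libraries were merged before deposit, which also left no replicate to leave out.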

Other observations

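The 6 genes that the study's annotation pairs with the same or adjacent steps had too few counts to be tested in any comparison. The alcohol dehydrogenase 1 gene MDP0000899824 was listed at 0 counts in 0.8ox, 0.313 in 0.4ox and 0 in T0, and MDP0000312969 at 1.38, 0.431 and 1.99. The sucrose synthase 3 gene MDP0000462673 was listed at 0 counts in 0.8ox, 0.431 in 0.4ox and 0 in T0. The lactate dehydrogenase gene MDP0000214930 was at 0, 2.39 and 0 in the same order, the aldehyde dehydrogenase 2B4 gene MDP0000158486 at 2.29, 0.711 and 4.07, and the UDP-glucose pyrophosphorylase 2 gene MDP0000828130 at 0, 0.313 and 0.174. All but 1 of these values were under the floor of 3 counts, so no direction is read from them.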
